A study of Mus musculus with 8 samples.

Results

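Toll-like receptors seldom work alone, and the 10 genes described here encode the proteins that stand beside them: the co-receptors Cd14, Ly96, Ly86 and Cd180, the adaptors Myd88, Tirap and Ticam1, the kinase-family members Irak2 and Irak3, and the chaperone Unc93b1. They were chosen by symbol: every probe set whose platform annotation names exactly 1 of these genes was taken, which gave 12 probe sets of the 45037 on the array that are not controls. Tirap and Irak3 had 2 probe sets each and the other 8 genes had 1 each. All 12 passed the filter on dim signal, and the lowest single value among them was 1.98 times the median of the whole table. RNA came from C57Bl/6 mice aged 12 weeks, whose blood monocytes were separated into Gr1lo cells (Ly6Clo, 4 arrays) and Gr1hi cells (Ly6Chi, 4 arrays); no treatment or engineered allele is named in the labels. Per the labels, leukocytes of 5 mice were pooled for a sort and 4 sorts gave the replicates, so a sample averages over animals; whether a Ly6Clo and a Ly6Chi sample came from the same sort is not stated. The 8 arrays had medians between 80.6 and 83.1. Both subsets carried monocyte transcripts: Csf1r averaged 14.06 in Ly6Clo and 13.86 in Ly6Chi, and Lyz2 averaged 14.22 in Ly6Clo and 14.46 in Ly6Chi (log2 intensity). Of the 10 monocyte markers read, 4 were higher and 4 lower in Ly6Clo at a limma adjusted p under 0.05. Over all genes tested these shares were 14.1% and 18.5%. Among the markers, Spn was 3.85-fold higher and Ccr2 3.59-fold lower in Ly6Clo. Arrays give no read depth, and the number of arrays limits the precision. Differences are Ly6Clo minus Ly6Chi on the log2 scale throughout, fitted with limma.

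In this pathway CD14, a protein anchored at the cell surface by a lipid, receives lipopolysaccharide from a serum carrier and passes it to MD-2 (Ly96), the small protein that holds the lipid against TLR4. RP105 (Cd180) resembles the outer part of TLR4 but lacks its signalling domain, pairs with MD-1 (Ly86), and is known to restrain TLR4 in myeloid cells and to promote responses in B cells. MyD88 joins most Toll-like receptors to kinases of the IRAK family, with TIRAP as its bridge at the plasma membrane, whereas TRIF (Ticam1) carries the signals of TLR3 and of internalised TLR4 toward interferon genes. UNC93B1 escorts the nucleic acid receptors from the endoplasmic reticulum to endosomes.

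Ly6Clo monocytes carried less RNA for 5 of the 10 genes, Cd14, Ly86, Unc93b1, Ticam1 and Ly96, and more for Irak2 and Cd180. Myd88 and Tirap were not called, and of the 2 Irak3 probe sets only the dimmer was called, higher in Ly6Clo. Taken by probe set, 8 of 12 passed an adjusted p of 0.05 (limma, Benjamini-Hochberg over the whole table), where 31.1% of all 22831 tested probe sets passed. In Ly6Clo 3 were higher, beside 15.2% of all tested, and 5 were lower, beside 15.9% of all tested. Taken by gene, with the brightest probe set standing for each, 7 of 10 were called, beside 32.5% of the 11546 genes tested. That made 2 genes higher in Ly6Clo, beside 14.1% of all genes, and 5 higher in Ly6Chi, beside 18.5%. Every array of one subset lay beyond every array of the other for 7 of the 12 probe sets, beside 31.8% of all tested probe sets. The median absolute difference was 0.29 over the 12 probe sets and 0.13 over all tested ones. The genes were chosen with earlier results of these arrays known, so these shares describe them and test nothing further. In sorted bulk RNA, fewer cells of a type and less RNA per cell cannot be told apart.

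**Figure D1:**
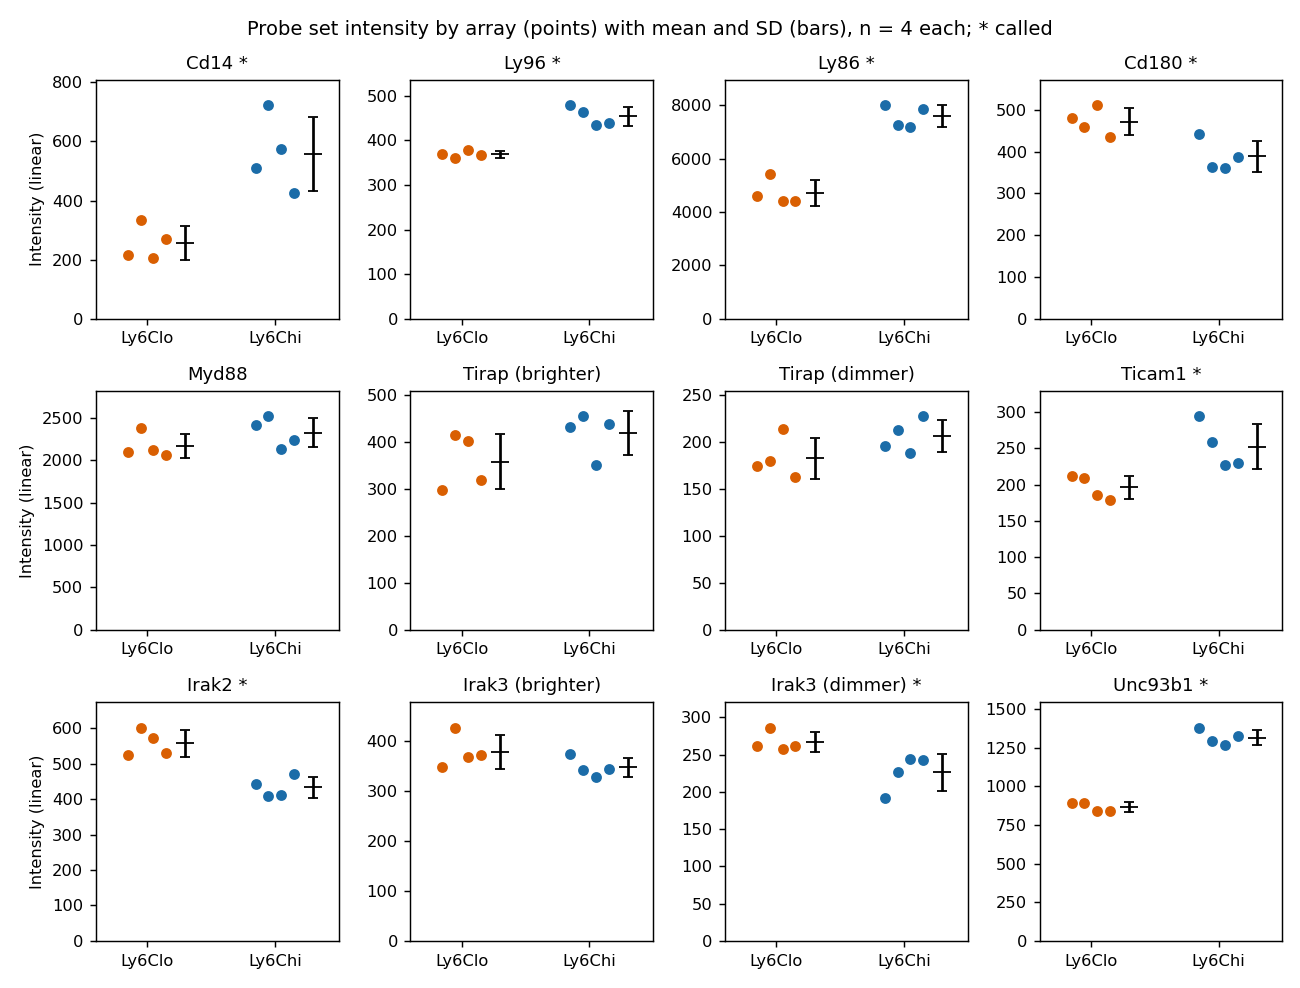
Intensity on a linear scale for each of the 12 probe sets in 4 Ly6Clo arrays (left of each panel) and 4 Ly6Chi arrays (right). Points are arrays, bars are the mean with its SD, and an asterisk marks an adjusted p under 0.05; the subsets stand clear of each other for Cd14, Ly86, Unc93b1 and Irak2 and run together for Myd88 and Tirap.

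RefSeq promoter windows (assembly GRCm38.p6, 250 bases before to 50 after the start site, on the strand of the gene, 5′ to 3′) were read here for 7 of the 10 genes. Cd14, Ly96 and Unc93b1 are not among them. The 5 below are shown because they belong to members that went opposite ways, beside one that was not called: Ly86 and Ticam1, lower in Ly6Clo, Cd180 and Irak2, higher in Ly6Clo, and Myd88. Capitals mark matches on either strand to PU.1 (GAGGAA), C/EBP (TTGCNNAA), NF-kB (GGANNNTCC), the interferon response element (GAAANNGAA), AP-1 (TGANTCA), the GC box (GGGCGG), KLF (CCACACCC), the NBRE of the Nr4a receptors (AAAGGTCA), the octamer (ATTTGCAT) or the TATA box (TATAAA).
Ly86, chr13:37345095-37345394, plus strand: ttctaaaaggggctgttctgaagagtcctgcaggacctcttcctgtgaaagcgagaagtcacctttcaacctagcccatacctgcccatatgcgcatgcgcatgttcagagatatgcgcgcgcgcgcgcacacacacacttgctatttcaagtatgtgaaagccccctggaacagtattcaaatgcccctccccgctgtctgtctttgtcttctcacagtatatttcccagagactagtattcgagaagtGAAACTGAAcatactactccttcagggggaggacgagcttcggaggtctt
Cd180, chr13:102693297-102693596, plus strand: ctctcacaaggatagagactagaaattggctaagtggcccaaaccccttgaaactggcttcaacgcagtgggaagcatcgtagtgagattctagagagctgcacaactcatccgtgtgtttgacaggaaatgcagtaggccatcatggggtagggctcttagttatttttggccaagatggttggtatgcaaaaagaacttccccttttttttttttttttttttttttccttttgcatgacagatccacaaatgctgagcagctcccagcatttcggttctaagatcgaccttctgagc
Ticam1, chr17:56276718-56277017, minus strand: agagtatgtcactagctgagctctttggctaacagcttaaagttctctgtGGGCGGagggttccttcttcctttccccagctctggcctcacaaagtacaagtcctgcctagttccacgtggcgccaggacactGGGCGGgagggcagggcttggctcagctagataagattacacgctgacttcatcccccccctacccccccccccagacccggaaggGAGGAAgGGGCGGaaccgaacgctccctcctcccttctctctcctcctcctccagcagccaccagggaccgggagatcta
Irak2, chr6:113638217-113638516, plus strand: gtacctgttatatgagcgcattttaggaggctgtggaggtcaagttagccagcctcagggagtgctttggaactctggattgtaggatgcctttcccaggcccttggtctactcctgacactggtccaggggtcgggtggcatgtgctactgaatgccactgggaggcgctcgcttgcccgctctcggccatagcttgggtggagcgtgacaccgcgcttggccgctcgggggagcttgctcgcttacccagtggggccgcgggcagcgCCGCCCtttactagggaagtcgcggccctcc
Myd88, chr9:119339969-119340268, minus strand: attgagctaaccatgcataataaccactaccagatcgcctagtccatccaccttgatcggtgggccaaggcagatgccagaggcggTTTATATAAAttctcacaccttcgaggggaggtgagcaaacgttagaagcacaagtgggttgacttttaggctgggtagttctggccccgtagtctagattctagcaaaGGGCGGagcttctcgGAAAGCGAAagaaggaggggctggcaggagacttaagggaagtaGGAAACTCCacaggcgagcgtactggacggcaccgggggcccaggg

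The windows of Ly86 and Cd180, whose genes both lie on chromosome 13, held little: that of Ly86 had an interferon response element at the start site, and those of Cd180, of which the first is shown, had none of the 10 motifs. The Ticam1 window held 3 GC boxes, the last of them starting 23 bases before the start site, and a PU.1 match starting 30 bases before it. GC boxes were present in 35.7% of all 32851 windows and PU.1 matches in 28.3%. The Irak2 window held a single GC box, after the start site. The Myd88 window held an interferon response element starting 40 bases before the start site, a motif present in 8.56% of all windows. It also held an NF-kB match (8.62% of all windows), a GC box and 2 overlapping TATA matches on opposite strands (13.6% of all windows hold such a match). The TATA matches started 160 and 164 bases before the start site. These are matches of letters, and nothing on the arrays measures binding at them.

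Cd14 showed the largest difference of the 10 genes. Its probe set (1417268_at) read 216, 334, 207 and 269.7 in the 4 Ly6Clo arrays, against 509, 722, 575 and 425 in the 4 Ly6Chi arrays. Every Ly6Clo array lay below every Ly6Chi array. The gene was 2.17-fold lower in Ly6Clo (log2 difference -1.12, SE 0.17, 95% interval -1.50 to -0.74, limma adjusted p = 0.00041), and it was the single member to differ by 2-fold or more, as 3.51% of tested probe sets did. Cd14 was also the least even of the members within a subset, with an SD of 0.32 in Ly6Clo and 0.32 in Ly6Chi (log2, n = 4 each). Its residual SD was larger than that of 98.7% of tested probe sets. Leaving out any single array kept the difference between -1.26 and -0.99.

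Ly96, which encodes the lipopolysaccharide-binding partner of TLR4, was lower in Ly6Clo by a smaller but very even margin. Its probe set (1449874_at) read 369, 361, 378 and 366 in Ly6Clo and 479, 464, 435 and 439 in Ly6Chi. The subsets did not overlap, and the difference was -0.30 (SE 0.06, 95% interval -0.43 to -0.17, adjusted p = 0.0022). The residual SD of 0.05 was smaller than that of nearly all tested probe sets; 4.38% had a smaller one. For Tlr4 itself, the receptor that both products serve, the mean was 7.88 in Ly6Clo and 7.67 in Ly6Chi (difference 0.21, SE 0.10, adjusted p = 0.12), which was not called.

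Ly86 and Cd180, whose products are found as a complex, went opposite ways. Ly86 (1422903_at) read 4616.5, 5419, 4402 and 4426 in Ly6Clo and 8003, 7281, 7200.3 and 7874 in Ly6Chi. The highest Ly6Clo array lay below the lowest Ly6Chi array, and the gene was 1.61-fold lower in Ly6Clo (difference -0.69, SE 0.08, 95% interval -0.86 to -0.52, adjusted p = 4.2e-05). Cd180 (1421547_at) read 480.4, 459, 511 and 435 in Ly6Clo and 442, 363, 361 and 387 in Ly6Chi. A single pair of arrays overlapped, the lowest of Ly6Clo and the highest of Ly6Chi. Cd180 was 1.22-fold higher in Ly6Clo (difference 0.28, SE 0.08, 95% interval 0.10 to 0.46, adjusted p = 0.0196). That call was lost without Ly6Chi replicate 2 (adjusted p = 0.061), without Ly6Chi replicate 3 (adjusted p = 0.055) or without Ly6Clo replicate 3 (adjusted p = 0.058).

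Both Cd180 and Ly86 are also known from B cells, so the B cell markers were read beside them. The summed intensity of the 9 measured B cell markers ran from 1332 to 1692 in Ly6Clo and from 1240.2 to 1786 in Ly6Chi, and the ranges overlapped. Of the 7 tested, 1 was called higher and 3 lower in Ly6Clo, beside 14.1% and 18.5% of all genes tested. Ms4a1, which encodes CD20, averaged 6.11 in Ly6Clo, below the table median of 6.36, and 7.25 in Ly6Chi, and Cd79a averaged 6.07 in Ly6Clo and 6.91 in Ly6Chi. Vpreb3, also called lower, averaged 7.07 in Ly6Clo and 7.40 in Ly6Chi. Cd79b and Blk had lower means in Ly6Clo and were not called, and Pax5 was nearly equal (difference 0.01). Cd22, an inhibitory sialic acid receptor, averaged 9.27 in Ly6Clo and 7.99 in Ly6Chi. As an intensity Cd22 averaged 625 in Ly6Clo and 256 in Ly6Chi, a gap that runs against those of the markers called lower within the sum. Ebf1 lay below the table median in all 8 arrays. The 11 measured neutrophil markers summed to 1527 to 1865 in Ly6Clo and to 2131 to 2757 in Ly6Chi, a gap on the same side as that of the 5 genes lower in Ly6Clo. Of the 8 tested, 3 were called lower in Ly6Clo, beside 18.5% of all genes, and none was called higher there. Cxcr2 and Stfa2l1 lay below the table median in all arrays. Csf3r, the receptor for granulocyte colony-stimulating factor, which monocytes also express, averaged an intensity of 858 in Ly6Clo and 1263 in Ly6Chi. The gap between these means is part of the gap in the sum and by far the widest of the 8 tested markers. The next widest was that of S100a8, which averaged 71 in Ly6Clo and 197 in Ly6Chi. S100a8 was at least 2.26-fold lower in Ly6Clo (limma adjusted p = 0.015), a bound because its Ly6Clo mean lay below the table median. Mpo was 1.18-fold lower there (adjusted p = 0.033). Elane averaged 102 in Ly6Clo and 105 in Ly6Chi and was not called. Ngp, Ltf, Camp and S100a9 were not called either, and each had a lower mean in Ly6Clo. The 6 measured NK cell markers summed to 820.3 to 986 in Ly6Clo and to 716 to 748 in Ly6Chi, a gap on the side of Irak2 and Cd180. Of the 2 tested, Gzma was 1.64-fold higher in Ly6Clo (limma adjusted p = 0.0019) and Klrk1 was not called. As an intensity Gzma averaged 302 in Ly6Clo and 185 in Ly6Chi, and Klrk1 averaged 284 in Ly6Clo and 272 in Ly6Chi. The gap of Gzma, the wider of the 2, is part of the gap in the sum. Ncr1, Prf1, Klra8 and Eomes did not pass the filter on dim signal, and Eomes lay below the table median in all arrays. The part of these cell types in the results was not tested.

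**Figure D2:**
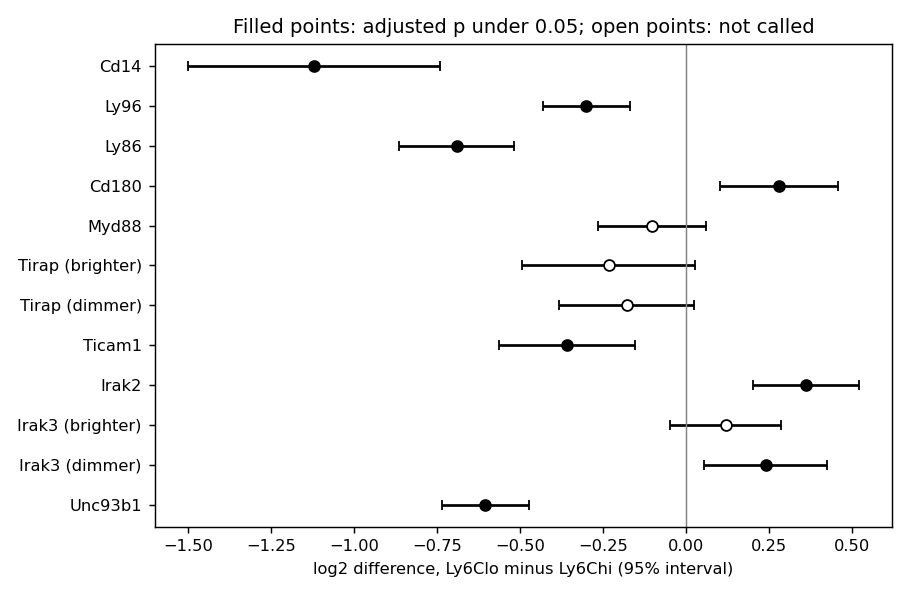
Log2 difference (Ly6Clo minus Ly6Chi) of each probe set with its 95% interval, unadjusted. Filled points passed an adjusted p of 0.05; the co-receptors spread from -1.12 for Cd14 to 0.28 for Cd180.

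Among the adaptors, Ticam1 was called and Myd88 and Tirap were not. Ticam1 (1454676_s_at, a probe set that can match several transcripts) read 211, 208, 186 and 179 in Ly6Clo and 294, 258, 227 and 229 in Ly6Chi. The highest Ly6Clo array stayed below the lowest Ly6Chi array. The gene was 1.28-fold lower in Ly6Clo (difference -0.36, SE 0.09, 95% interval -0.56 to -0.15, adjusted p = 0.012). Without any single array the difference stayed between -0.41 and -0.28, with an adjusted p of 0.0093 to 0.041.

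Myd88, the adaptor shared by most of the receptors, showed the smallest difference of the 12 probe sets and was not called. Its probe set (1419272_at) read 2103, 2378, 2121 and 2067 in Ly6Clo and 2414, 2517, 2130 and 2245.5 in Ly6Chi, with arrays of the 2 subsets interleaved. The difference was -0.10 (SE 0.07, 95% interval -0.26 to 0.06, adjusted p = 0.35), and it ran from -0.15 to -0.06 with 1 array left out at a time.

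Tirap was measured by 2 probe sets that leaned the same way and overlapped between subsets. The brighter (1457676_at) read 298.5, 414, 402 and 319 in Ly6Clo and 432.5, 455, 350.5 and 439 in Ly6Chi (difference -0.23, SE 0.12, adjusted p = 0.173). The dimmer (1418685_at) read 175, 179.9, 213 and 162 in Ly6Clo and 196, 213, 188 and 227 in Ly6Chi (difference -0.18, SE 0.09, adjusted p = 0.177). Neither was called; the dimmer was called without Ly6Clo replicate 3, its highest Ly6Clo array (difference -0.26, adjusted p = 0.0402). Leaving out other arrays moved the differences the other way, to -0.15 for the brighter without Ly6Clo replicate 1 (adjusted p = 0.406) and to -0.12 for the dimmer without Ly6Clo replicate 4 (adjusted p = 0.402).

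Irak2, a kinase-like protein of the MyD88 signalling complex that sustains signalling, was higher in Ly6Clo. Its probe set (1436507_at) read 524, 602, 573 and 529 in Ly6Clo and 444, 409, 411 and 471 in Ly6Chi. All Ly6Clo arrays lay above all Ly6Chi arrays. The gene was 1.28-fold higher in Ly6Clo (difference 0.36, SE 0.07, 95% interval 0.20 to 0.52, adjusted p = 0.0025), and the difference stayed between 0.32 and 0.40 without any single array.

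Irak3, also called IRAK-M, a brake on the same complex that is best known from monocytes and macrophages, gave no settled answer. The brighter probe set (1435040_at) read 347, 427, 367 and 371 in Ly6Clo and 375, 342, 328 and 343 in Ly6Chi. These ranges overlapped, and the difference of 0.12 was not called (SE 0.08, 95% interval -0.05 to 0.29, adjusted p = 0.278). Without Ly6Clo replicate 2, its highest array, the difference was 0.06 (adjusted p = 0.588). The dimmer (1430704_at) read 262, 286, 257 and 261 in Ly6Clo and 191, 227, 245 and 243 in Ly6Chi. Here the subsets did not overlap, and the difference of 0.24 passed narrowly (SE 0.08, 95% interval 0.06 to 0.43, adjusted p = 0.0495). The call was lost in 11 of 17 alternative settings, with an adjusted p of 0.037 to 0.127 over all of them. Replicate 1 read lowest of the Ly6Chi arrays, and without it the difference was 0.16 (adjusted p = 0.105).

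Unc93b1 gave the smallest adjusted p of the 10 genes. Its probe set (1423768_at) read 893, 890.2, 843 and 838 in Ly6Clo and 1380.2, 1293, 1265 and 1326 in Ly6Chi. The spread within each subset was small beside the gap between them. The gene was 1.52-fold lower in Ly6Clo (difference -0.60, SE 0.06, 95% interval -0.73 to -0.47, adjusted p = 1.3e-05), and only 4.92% of tested probe sets had a smaller residual SD.

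Of the receptors that UNC93B1 escorts, Tlr7, a sensor of single-stranded RNA, averaged 10.62 in Ly6Clo and 10.08 in Ly6Chi (difference 0.53, SE 0.09, adjusted p = 0.00051), and Tlr13, a sensor of bacterial ribosomal RNA, averaged 11.22 in Ly6Clo and 10.79 in Ly6Chi (difference 0.43, SE 0.06, adjusted p = 0.00028). Tlr8, Tlr9 and Tlr12, which it also escorts, differed by -0.05, -0.01 and -0.03 and were not called (adjusted p = 0.76, 0.96 and 0.78). Tlr3, another of the nucleic acid receptors, did not pass the filter on dim signal and was not tested. At the surface, Tlr2, which also uses CD14, was 1.52-fold lower in Ly6Clo (difference -0.61, SE 0.11, adjusted p = 0.0011), and Tlr5, the flagellin receptor, was 1.20-fold lower (difference -0.26, SE 0.08, adjusted p = 0.028). Of the 10 Toll-like receptors tested, 2 were called higher and 3 lower in Ly6Clo, beside 14.1% and 18.5% of all genes tested.

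Ratios between members and their partners were taken within each array, for 6 pairs chosen after their values were seen, and scaled so that the mean of the Ly6Chi log ratios stood at 1. They are a description and show unequal change, not which partner moved. The ratio of Ly86 to Cd180 was 0.491, 0.602, 0.440 and 0.519 in Ly6Clo and 0.925, 1.02, 1.02 and 1.04 in Ly6Chi, a mean of 0.510 in Ly6Clo relative to Ly6Chi. The ratio of Unc93b1 to Tlr7 was 0.445, 0.430, 0.469 and 0.475 in Ly6Clo and 0.908, 1.00, 1.02 and 1.07 in Ly6Chi, a mean of 0.454 relative to Ly6Chi. The ratio of Unc93b1 to Tlr13 averaged 0.487 in Ly6Clo relative to Ly6Chi, that of Cd14 to Tlr4 averaged 0.397 and that of Ly96 to Tlr4 averaged 0.701. The ratio of Irak2 to the brighter Irak3 probe set went the other way, at 1.21, 1.13, 1.25 and 1.14 in Ly6Clo and 0.948, 0.957, 1.00 and 1.10 in Ly6Chi. With the dimmer Irak3 probe set in its place the subsets overlapped. Ly6Chi replicate 1, at 444 for Irak2 and 191 for that probe set, then had the highest ratio of the 8 arrays. None of the 6 ratios, with Irak3 taken by its brighter probe set, overlapped between the subsets. Among single probe sets, 31.8% of all tested did not overlap. No such share was computed over other pairs of genes, and given how the pairs were chosen this count tests nothing.

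**Figure D3:**
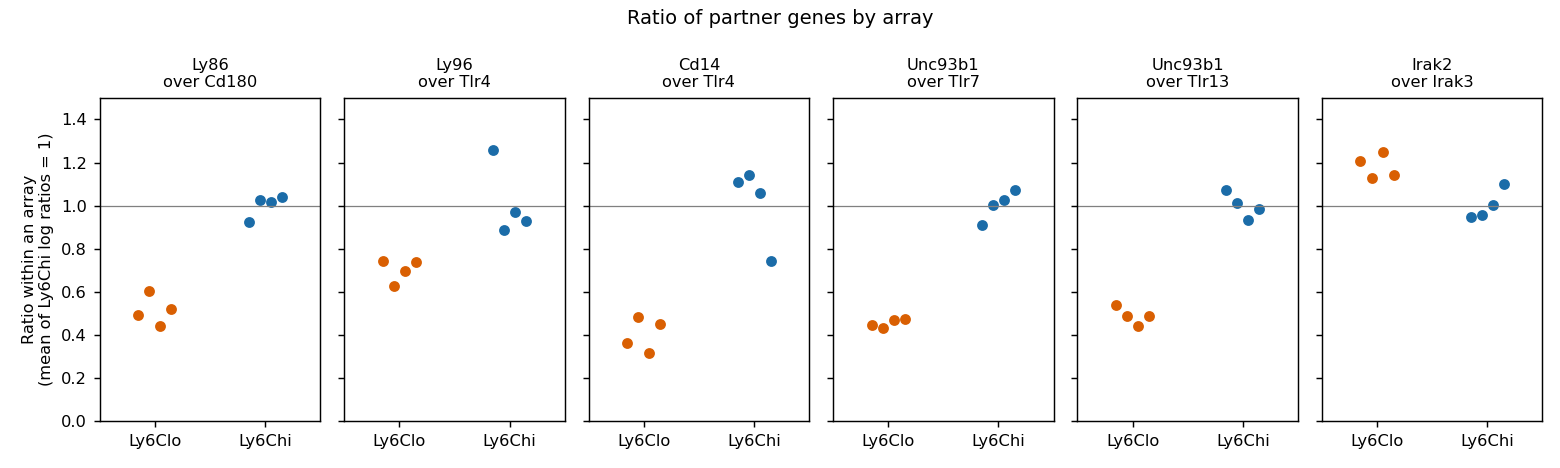
Within-array ratios of 6 pairs of partner genes, on a linear axis from 0, scaled to the mean of the Ly6Chi log ratios. Each point is 1 array, with Ly6Clo left and Ly6Chi right. In Ly6Clo 5 ratios lie lower, and Irak2 over the brighter Irak3 probe set lies higher.

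The rest of the pathway was read from 7 lists of other genes, grouped by role. Of 71 genes tested, 21 were called higher and 12 lower in Ly6Clo, beside 14.1% and 18.5% of all genes tested. The same shares stand beside the count of each list below. The median difference of the 71 genes was 0.04, beside -0.27 for the 10 members and -0.01 for all genes tested. Among co-receptors and ligand carriers, 2 of 6 were called higher and 1 lower in Ly6Clo. Cd36, a scavenger receptor that presents lipids to TLR2 complexes, was 18.9-fold higher in Ly6Clo. Itgb2, the beta chain of the integrins that also bind lipopolysaccharide, was 1.47-fold higher there. Clec7a, the beta-glucan receptor Dectin-1, was 1.68-fold lower in Ly6Clo (adjusted p = 1.6e-05). Of 4 other adaptors, Pik3ap1 (BCAP), which links receptors to PI3 kinase, was called, 3.03-fold higher in Ly6Clo (difference 1.60, SE 0.08, adjusted p = 6.4e-08).

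Downstream kinases and ubiquitin ligases were called in both directions, 3 of 16 higher and 4 lower in Ly6Clo, beside 14.1% and 18.5% of all genes. Map3k8 (TPL2), which feeds the ERK pathway, and Tank, a scaffold for TBK1 kinases, were 1.41-fold and 1.39-fold higher in Ly6Clo. Ikbke, a kinase that acts on interferon regulatory factors, was 2.16-fold lower in Ly6Clo. Peli2, a ligase that modifies IRAK proteins, was at least 1.85-fold lower in Ly6Clo, a bound because its Ly6Clo mean lay below the table median.

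Of 11 inhibitors tested, 5 were called higher and none lower in Ly6Clo, beside 14.1% and 18.5% of all genes. Dok1, an adaptor that dampens tyrosine kinase signals, was 1.65-fold higher, and Tnip1, a partner of the ubiquitin editor A20, 1.40-fold higher in Ly6Clo (adjusted p = 0.00036). Of 10 trafficking genes, Cd74, the class II invariant chain, was 2.22-fold and Slc15a4, an endolysosomal transporter needed for TLR7 and TLR9 responses, 1.29-fold higher in Ly6Clo. Rab7b, a small GTPase of late endosomes, was 1.63-fold lower in Ly6Clo, and the other 7 were not called, among them the receptor chaperones Hsp90b1 (difference 0.11) and Cnpy3 (difference 0.05).

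The list of transcription factors reached by the adaptors also holds regulators of NF-kB (Nfkbia, Nfkbib, Nfkbie and Nfkbiz). Of its 14 genes tested, 6 were called higher in Ly6Clo and 3 lower, beside 14.1% and 18.5% of all genes. The 6 were the factors Rela, Rel and Irf3 and the regulators Nfkbia, Nfkbie and Nfkbiz. The 3 were the factors Irf4, Irf7 and Irf8. Nfkbiz, an inducible cofactor of NF-kB, was 2.82-fold higher and Nfkbia, its inhibitor, 1.49-fold higher in Ly6Clo. Irf4 was 2.18-fold and Irf7, which MyD88 activates in interferon production, 1.88-fold lower in Ly6Clo.

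**Figure D4:**
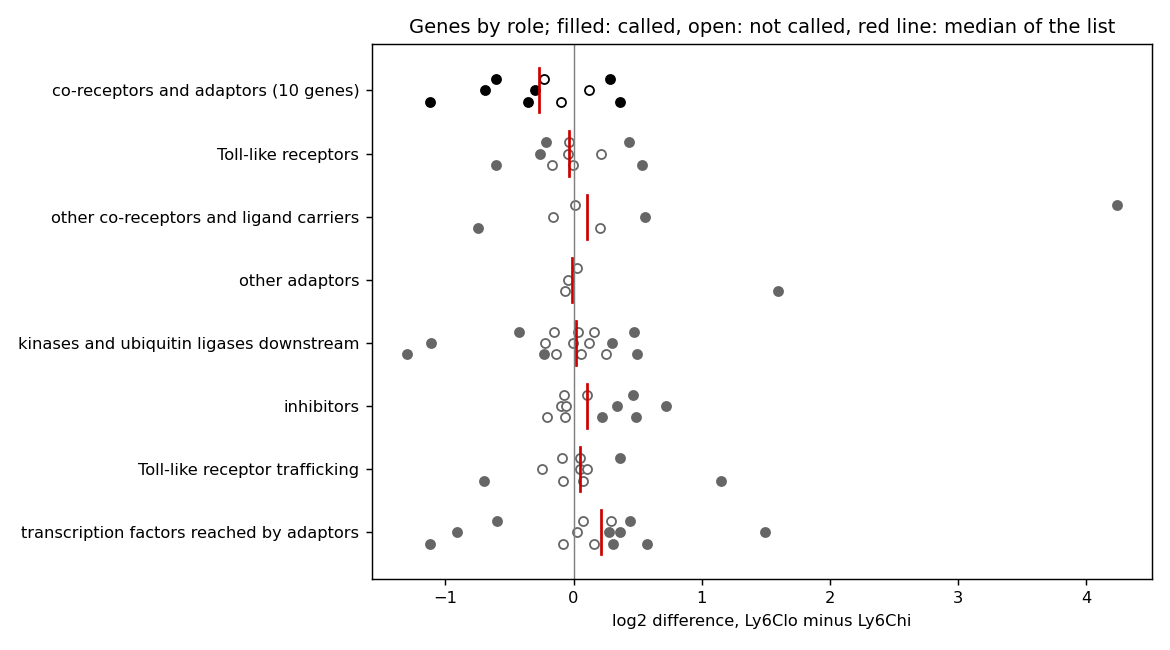
Log2 difference (Ly6Clo minus Ly6Chi) of the 10 genes, each by its brightest probe set, above those of 71 other pathway genes grouped by role. Filled points were called, open points were not, and the red line is the median of each list; the 10 genes have the lowest median, -0.27.

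Across the 8 arrays, the profiles most like that of Cd14, measured as the root mean square difference between log2 profiles after centring each on its mean, were those of Ms4a6d (0.13), Trim30d (0.14) and Cebpd (0.14), among 11536 other genes. Those of Ms4a6d and Cebpd differed between subsets by -1.31 and -1.22. For Irak2, the member furthest toward Ly6Clo, the closest were Phip, Akap8 and Kmt2c, each at 0.04. Likeness here reflects the difference between subsets and the shared arrays, and nothing is drawn from it about control.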

How the data were processed

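Gene expression was measured in 8 samples of sorted mouse monocytes, 4 Ly6Clo and 4 Ly6Chi, grouped by their titles, on 1 Affymetrix 3' array each. The authors deposited a table of linear intensity values, 1 per probe set, with nearly equal medians. GCRMA and MAS5 are named in the submitters' processing notes, and which of them made these values is not given in the sources used here. Per the labels' protocols, in vitro transcription was lengthened to 64 h, which can alter ratios. Values were taken to log2 with no further normalization. Gene names came from the platform annotation, updated by Entrez identifier.

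Of 45037 probe sets that are not controls, 22831 lay over the table median (81.9) in at least 4 of 8 arrays and were tested with limma 3.58.1 in R 4.3.3 (lmFit, eBayes, without a block). Tests were two-sided, adjusted by Benjamini-Hochberg across the whole table, and called under 0.05. Intervals are unadjusted. A gene was represented by its brightest tested probe set. A fold against a mean under the table median is given as a bound, with that median in place of the mean. The workflow was tested on simulated data. Alternatives changed the filter, the normalization, the log scale, the variance model, array weights, the choice of probe sets, the threshold (0.01) and the samples (each array left out, and a replicate block). Named were all 10 members, in each pathway list the 2 called genes with the largest fold each way, and genes used for comparison, among them Tlr4, Csf1r, Lyz2, Hsp90b1, Cnpy3 and the markers of other cell types, chosen after their values were seen. The members and lists were chosen with earlier results of these data known. Per-array levels of different probe sets are not comparable, and human arrays were not analysed here.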

Additional observations from a re-analysis of the deposited data

Results flagged for a closer look

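In the dimmer Irak3 probe set, 1 Ly6Clo array lay apart from the other 3. Replicate 2 read 286, and its gap to the next array made up 0.834 of the range of the group on the log2 scale, just over the value that Dixon's test allows for 4 samples. Of 24 groups of 4 tested in this way it was the 1 that stood out, and chance gives about 1 in 20. Without this array the difference of that probe set was 0.21, with a limma adjusted p of 0.127.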

How the results depend on the processing

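No member changed direction in the 18 alternative settings run for each gene (17 for the dimmer probe sets of Tirap and Irak3). In some of them direction could not change. The replicate block, the changed filters, the changed variance model and the threshold of 0.01 leave each difference as it was. So does the mean of probe sets for a gene that has only 1. The calls of Cd14, Ly86, Ly96, Irak2 and Unc93b1 held in each of the 18 settings run for them. At a threshold of 0.01, member probe sets called numbered 5, with 1 higher in Ly6Clo, and the probe sets called higher in Ly6Clo over the whole table numbered 2290; Cd180 and Ticam1 were no longer called. Leaving out 1 array at a time left 1 to 3 member probe sets called higher in Ly6Clo; 1 remained without Ly6Chi replicate 2 or without Ly6Clo replicate 3. With the mean of both probe sets, Irak3 was called higher in Ly6Clo (difference 0.18, adjusted p = 0.039). Samples with the same replicate number did not deviate together in every pair (correlations of 0.27, 0.34, -0.03 and -0.10 for numbers 1 to 4), so the numbers were not taken to pair the samples. Between unlike numbers the correlations ran from -0.41 (Ly6Clo 3 with Ly6Chi 1) to 0.55 (Ly6Clo 3 with Ly6Chi 4). Ly6Clo 4 with Ly6Chi 3 gave 0.30. Whether samples with unlike numbers shared a sort was not tested, and a block by replicate number would not capture it. With that block, 8 member probe sets were called, 3 and 5 in the same directions, and 7164 over the table. Precision is limited by 4 arrays a subset.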
